A study of Homo sapiens with 4 samples.

Results

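The colony-stimulating factors and the interleukin-6 (IL-6) family were followed here as 10 genes: the ligands CSF1, CSF2, CSF3, IL6, IL11 and LIF, the receptor chains IL6ST, IL6R and LIFR, and the feedback inhibitor SOCS3. They were taken by symbol from a deposited table of 57820 genes, in which each had 1 row. The set was selected on earlier results of the comparison below, that is on these genes' TPM and fold changes between the hairpins, so those values are given as a description, without p-values. Whether a gene was past the threshold of the fit over all genes is part of that description and supports nothing. RNA had been sequenced from 786-0 cells, an established line from a human renal carcinoma, that carried either a short hairpin RNA against GLUD1 (shGLUD1, 2 libraries) or a non-targeting hairpin (shNT, 2 libraries). GLUD1 encodes the mitochondrial glutamate dehydrogenase. Every library, shNT included, came from cells that had been deprived of amino acids for 12 h in a culture otherwise kept in DMEM with serum, so neither fed cells nor cells without a hairpin were compared. The labels name no hairpin sequence and do not say whether a group was 1 clone or whether its libraries came from separate cultures. The spread between the libraries of a group may therefore be technical. Each SE below comes from the fit over all genes, which borrows spread across genes, so it is not the spread of that gene alone.

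CSF1, CSF2 and CSF3 (also called M-CSF, GM-CSF and G-CSF) are secreted factors that drive the survival and maturation of macrophages, of granulocytes and macrophages, and of neutrophils. IL-6, IL-11 and LIF are secreted cytokines that signal through a shared membrane chain, encoded by IL6ST, together with further receptor chains. Binding activates JAK kinases and the transcription factor STAT3, which induces SOCS3, and the SOCS3 protein then blocks the receptor and its kinases. Carcinoma cells, renal lines among them, are known to secrete several of these ligands.

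Levels are in TPM, transcripts per 1000000, which are divided by transcript length and so can be compared between genes. The targeted gene did not separate the groups on this scale: the libraries labelled shGLUD1 held 13.52 and 19.82 TPM of GLUD1, against 18.09 and 17.43 TPM in shNT (log2 fold change -0.11, SE 0.19, limma adjusted p = 0.631), and the value was 0.15 without shGLUD1 replicate 1. Below, shGLUD1 therefore means the libraries so labelled, and every direction is drawn from that label. Most genes were higher in shGLUD1: over the 12524 genes whose mean reached 1 TPM, the median log2 fold change was 0.63. Each fold change is therefore also given with the libraries divided by their median-ratio factors, so that the median gene no longer moves; this is called the rescaled value. The rescaled value of GLUD1 was -0.83 (SE 0.15, limma adjusted p = 0.00233). Of 10 genes listed as marks of the line, 8 reached a mean of 1 TPM, while PAX2 and KRT19 did not. Their sum was 3140 and 3986 TPM in shGLUD1, against 1128 and 1088 TPM in shNT, most of it VIM (2901.83 and 3755.83 TPM in shGLUD1, 930.90 and 890.77 TPM in shNT), whereas the renal lineage factor PAX8 stood at 5.18 and 7.48 TPM in shGLUD1 and 8.07 and 8.75 TPM in shNT. Of 10 leukocyte markers, CD68 and CD3D reached a mean of 1 TPM, MS4A1 and NKG7 were among those listed at 0 in every library, and PTPRC was at most 0.01 TPM. Summed, the leukocyte markers held 210 and 244 TPM in shGLUD1, against 161 and 148 TPM in shNT, nearly all of it CD68 (208.73 and 241.26 TPM in shGLUD1, 158.94 and 145.85 TPM in shNT), which encodes a lysosomal protein. CD3D stood at 1.55 and 1.72 TPM in shGLUD1, against 0.66 and 0.20 TPM in shNT, and CD14 at 0.04 and 0.46 TPM in shGLUD1, against 1.11 and 1.24 TPM in shNT. Endothelial markers summed to at most 0.47 TPM in any library, and fibroblast markers to 54.1 and 58.9 TPM in shGLUD1 and 22.9 and 19.1 TPM in shNT. Most of the fibroblast sum was COL1A2 (45.91 and 49.23 TPM in shGLUD1, 19.03 and 15.97 TPM in shNT). COL1A1 and PDGFRB also reached a mean of 1 TPM, whereas COL3A1 was at most 0.03 TPM and DCN at most 0.93 TPM. The part of these markers in the results was not tested. In bulk RNA, fewer cells that express a gene and less of its RNA per cell cannot be told apart.

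The ligands differed in direction. In shGLUD1, CSF3 and CSF1 were about 6 times as high as in shNT (ratios of mean TPM 6.28 and 6.0), LIF was higher by a ratio of 1.76, and IL6, IL11 and CSF2 were lower, with ratios of 0.44, 0.499 and 0.747. The receptor chains were low throughout, and SOCS3 was higher by a ratio of 1.49. Of the 10 genes, 9 reached a mean of 1 TPM and entered the fit over all genes. Among these 9, both shGLUD1 libraries were above both shNT libraries in 5, as in a background of 69.9% of all genes tested, and below both in 3, as in a background of 13.5%. Past its threshold (limma-trend on log2(TPM + 1), Benjamini-Hochberg adjusted p under 0.05) were 5 of the 9 in the higher direction, against a background of 56.7% of all genes tested, and 3 in the lower direction, against a background of 7.77%. After rescaling, 2 were higher (background 23.2%) and 4 lower (background 27.9%). Because this comparison chose the genes, nothing is read from these shares. IL6ST, SOCS3 and CSF2 were no longer past the threshold without shGLUD1 replicate 2 (0.45, 0.42 and -0.34) or without shNT replicate 1 (0.59, 0.58 and -0.28). Fewer of all genes tested were past it in these fits too.

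**Figure D1:**
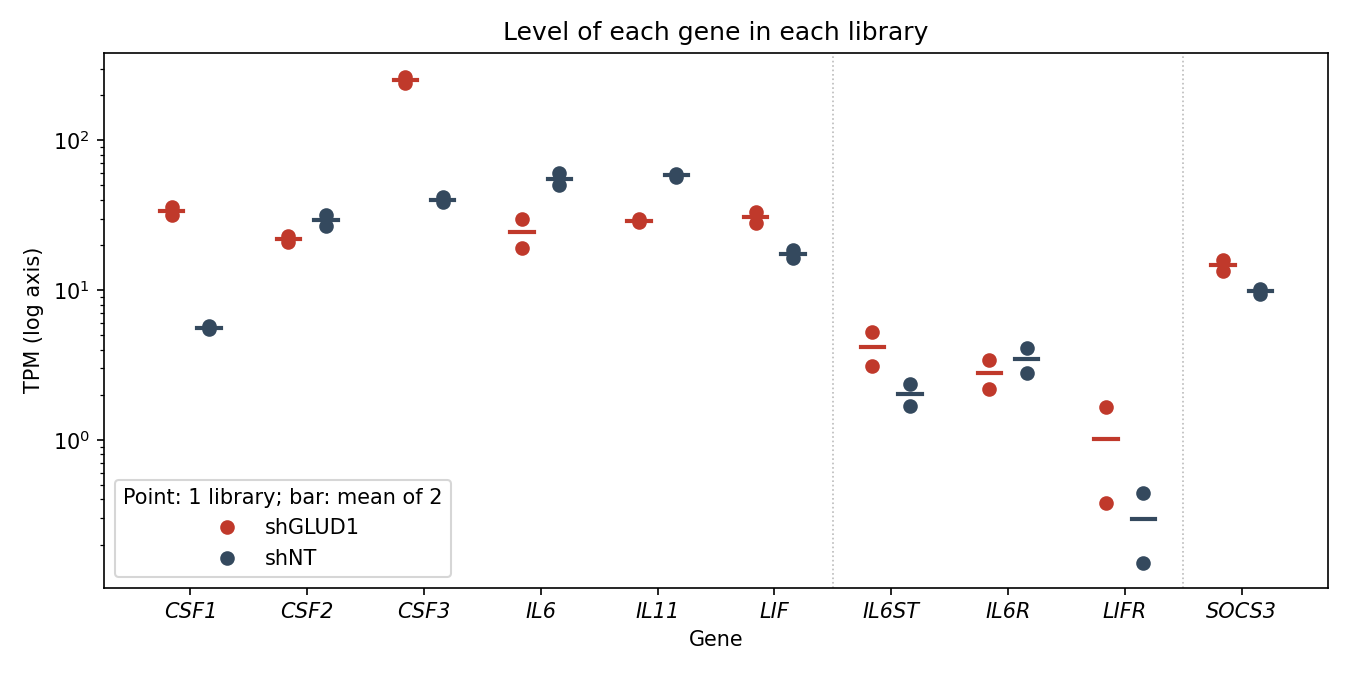
TPM of each of the 10 genes on a log axis, with 1 point per library, shGLUD1 left of shNT, and a bar at the mean of the 2 libraries; dotted lines part ligands, receptor chains and SOCS3. CSF3 at 240.56 and 262.83 TPM in shGLUD1 is the highest value, and the receptor chains lie at or below 5.26 TPM in every library.

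CSF3, the granulocyte factor that drives neutrophil output, lies on chromosome 17 (GRCh38, 40015361 to 40017813, plus strand, protein-coding). It stood at 240.56 and 262.83 TPM in shGLUD1, against 41.62 and 38.60 TPM in shNT. The libraries of each hairpin lay close together and the groups were far apart. On TPM the log2 fold change was 2.62 (SE 0.11), the 25th highest of the 12524 genes tested, and the rescaled value was 1.87 (SE 0.11). In rank of level within a library, which does not depend on scaling, CSF3 was above 95.4% and 95.7% of the genes tested in shGLUD1, against 83.0% and 82.0% in shNT.

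CSF1, the macrophage factor that binds the receptor CSF1R, lies on chromosome 1 (109910242 to 109930992, plus strand). It stood at 31.84 and 35.58 TPM in shGLUD1, against 5.73 and 5.51 TPM in shNT, so both shGLUD1 libraries were well above both shNT libraries. CSF1 had a log2 fold change of 2.39 (SE 0.17), the rescaled value was 1.69 (SE 0.13), and the rank was 56th from the highest. CSF1 was above 74.8% and 74.5% of the genes tested in shGLUD1, against 49.8% and 48.5% in shNT, so it lay near the middle of the distribution only in shNT.

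CSF2, the granulocyte-macrophage factor on chromosome 5 (132073790 to 132076170, plus strand), did not share that direction. It stood at 22.85 and 20.84 TPM in shGLUD1, against 31.78 and 26.69 TPM in shNT, and the groups did not overlap but lay near each other. Its log2 fold change was -0.40 (SE 0.15) and the rescaled value -1.13 (SE 0.16). CSF2 was past the threshold with all 4 libraries, but not without shGLUD1 replicate 2 (-0.34), shNT replicate 1 (-0.28) or shNT replicate 2 (-0.52), nor with all 4 libraries and no filter on low values or no variance trend.

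IL6, the cytokine of the acute-phase response, lies on chromosome 7 (22725884 to 22732002, plus strand). It stood at 19.10 and 29.59 TPM in shGLUD1, against 60.55 and 50.08 TPM in shNT. Both shGLUD1 libraries were below both shNT libraries, and the shGLUD1 libraries lay farther apart relative to their mean than for the other ligands. The log2 fold change was -1.18 (SE 0.19), the rescaled value -1.92 (SE 0.16), and the values without 1 library lay between -1.48 and -0.87. The span of IL6 overlaps STEAP1B on the opposite strand, which rose (11.58 and 16.18 TPM in shGLUD1, 4.28 and 5.14 TPM in shNT, log2 fold change 1.37, limma adjusted p = 0.000367). Whether strand was used in counting is not given in the sources used here, so reads shared by the 2 genes cannot be told apart.

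IL11, a cytokine that acts on stromal and blood-forming cells, lies on chromosome 19 (55364389 to 55370463, minus strand). It stood at 28.35 and 29.75 TPM in shGLUD1, against 56.61 and 59.89 TPM in shNT, with tight libraries in both groups. The log2 fold change was -0.98 (SE 0.12) and the rescaled value -1.72 (SE 0.12). The ratio of IL6 to IL11 TPM was 0.674 and 0.995 in shGLUD1, against 1.07 and 0.836 in shNT, ranges that overlap.

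LIF, leukemia inhibitory factor, lies on chromosome 22 (30240447 to 30246851, minus strand). It stood at 28.14 and 33.17 TPM in shGLUD1, against 16.30 and 18.48 TPM in shNT, and the groups did not overlap. LIF had a log2 fold change of 0.78 (SE 0.15), close to the 0.63 of the median gene, and the rescaled value was 0.05 (SE 0.13), not past the threshold. LIF was above 72.6% and 73.3% of the genes tested in shGLUD1, against 69.6% and 71.5% in shNT.

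RefSeq (GRCh38.p14) gave the bases before the transcript start for 7 of the 10 genes, and those of IL6, IL11 and CSF2, the 3 ligands that were lower in shGLUD1, are shown because these genes shared a direction. Each line holds the 250 bases before the start, 5′ to 3′ on the gene's strand, and capitals mark every match, on either strand, to TGANTCA (AP-1), TGACGTCA (the cyclic AMP response element, CRE), TTCNNNGAA (STAT), TTNNGNAAT (C/EBP) or the NF-kB consensus. The regions are chr7:22726950-22727199 (plus) for IL6, chr19:55370464-55370713 (minus) for IL11 and chr5:132073539-132073788 (plus) for CSF2. The RefSeq start of IL6 lies inside the span given above for the gene.
IL6: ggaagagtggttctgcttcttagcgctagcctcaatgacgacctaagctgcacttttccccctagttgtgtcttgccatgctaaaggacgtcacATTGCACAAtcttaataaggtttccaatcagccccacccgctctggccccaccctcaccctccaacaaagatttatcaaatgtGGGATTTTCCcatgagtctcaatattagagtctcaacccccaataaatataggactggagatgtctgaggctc
IL11: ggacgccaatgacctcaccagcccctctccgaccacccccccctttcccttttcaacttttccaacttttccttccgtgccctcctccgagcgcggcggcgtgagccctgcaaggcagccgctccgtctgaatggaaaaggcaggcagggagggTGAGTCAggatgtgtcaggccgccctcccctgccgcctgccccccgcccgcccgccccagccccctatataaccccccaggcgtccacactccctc
CSF2: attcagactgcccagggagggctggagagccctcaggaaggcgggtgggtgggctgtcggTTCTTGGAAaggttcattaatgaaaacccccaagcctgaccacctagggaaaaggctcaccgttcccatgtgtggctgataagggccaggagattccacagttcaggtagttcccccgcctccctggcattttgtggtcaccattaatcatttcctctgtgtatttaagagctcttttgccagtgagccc
The capitals in IL6 are a C/EBP match 156 to 148 bases before the start and an NF-kB match 73 to 64 bases before it. IL11 held an AP-1 match 96 to 90 bases before its start, and CSF2 a STAT match 190 to 182 bases before its start. None of these matches overlapped another, and the 3 genes had no motif in common. Of the other 4 promoters, those of IL6ST, IL6R and SOCS3 held no match in this window, and LIFR held a STAT match 165 to 157 bases before its start. The SOCS3 window (chr17:78360926-78361175, minus) lies wholly upstream of the span given for the gene below, which ends at 78360077. The bases between them were not searched, so the absence of a match does not cover them. The LIFR window (chr5:38595406-38595655, minus) lies inside the span of its gene (38474963 to 38608354). Over all 27305 promoters of the same length, the share with a match was 6.60% for AP-1, 1.77% for CRE, 5.05% for NF-kB, 6.78% for STAT and 10.0% for C/EBP. A match is a run of letters and does not show that a factor was bound.

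As shares of the 6 ligands' summed TPM, values that do not depend on the scaling between libraries, the make-up of the ligands differed widely. The sum was 371 and 412 TPM in shGLUD1, against 213 and 199 TPM in shNT. CSF3 made up 64.9% and 63.8% of it in shGLUD1, against 19.6% and 19.4% in shNT. CSF1 made up 8.59% and 8.64% in shGLUD1, against 2.7% and 2.77% in shNT. IL6 made up 5.15% and 7.19% in shGLUD1, against 28.5% and 25.1% in shNT. IL11 had a closely similar course, with 7.64% and 7.23% in shGLUD1 and 26.6% and 30.1% in shNT. CSF2 made up 6.16% and 5.06% in shGLUD1, against 14.9% and 13.4% in shNT, also with no overlap. LIF was the ligand whose shares overlapped between groups, at 7.59% and 8.06% in shGLUD1 and 7.67% and 9.27% in shNT. The ratio of CSF3 to IL6 was 12.6 and 8.88 in shGLUD1, against 0.687 and 0.771 in shNT.

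**Figure D2:**
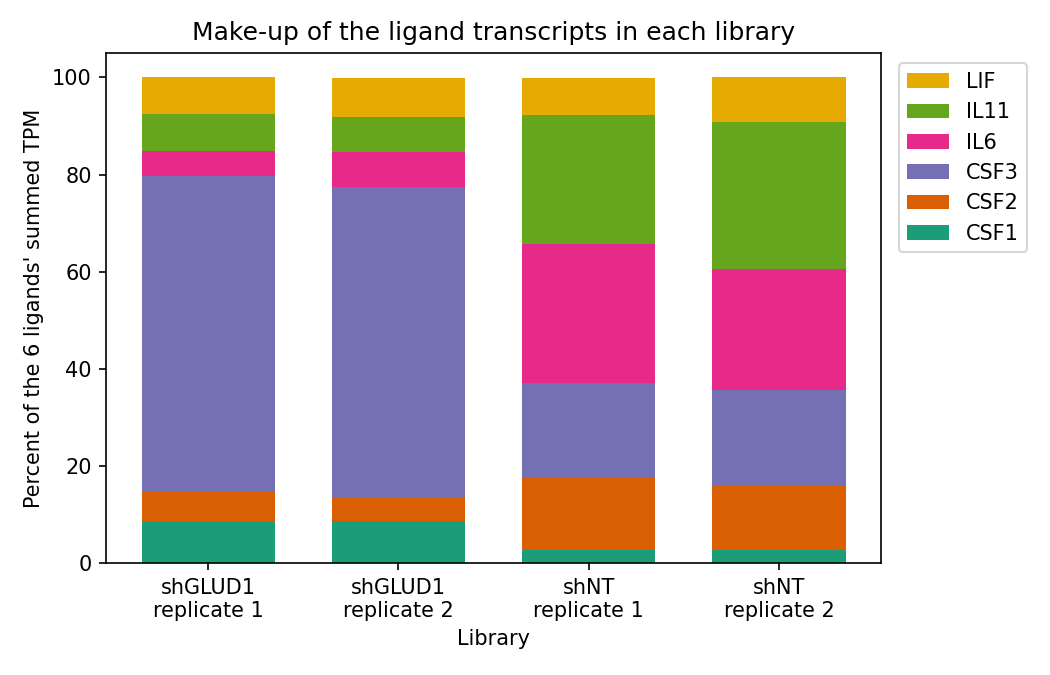
Percent of the summed TPM of the 6 ligands held by each ligand, 1 stacked bar per library, shGLUD1 left of shNT. CSF3 fills 64.9% and 63.8% of the shGLUD1 bars, against 19.6% and 19.4% of the shNT bars, while the IL6 and IL11 bands are narrower in shGLUD1.

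The order of the levels differed too. In shGLUD1 CSF3 stood alone at the top, followed by CSF1, LIF, IL11, IL6 and CSF2, whose neighbours in that order overlapped between 19.10 and 35.58 TPM. SOCS3 came next, then IL6ST and IL6R, which overlapped, and LIFR was lowest. In shNT IL6 and IL11 overlapped at the top, and each following gene was apart from the one before it, in the order CSF3, CSF2, LIF, SOCS3, CSF1, IL6R, IL6ST and LIFR.

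The receptor chains were transcribed at low levels in both groups. IL6ST, the shared signalling chain known as gp130, stood at 3.11 and 5.26 TPM in shGLUD1, against 1.69 and 2.37 TPM in shNT. The groups did not overlap, but the shGLUD1 libraries were farther from each other than the nearest libraries of the 2 groups. Its log2 fold change was 0.75 (SE 0.28) and the rescaled value 0.19 (SE 0.23). IL6ST was not past the threshold after rescaling, nor without a filter on low values, without shGLUD1 replicate 2 (0.45) or without shNT replicate 1 (0.59). The span of IL6ST overlaps a processed pseudogene on the opposite strand, AC016596.1. It was listed at 116.67 and 108.77 TPM in shGLUD1 and 160.47 and 178.23 TPM in shNT. Whether it shares exon bases or reads with IL6ST was not tested.

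IL6R, which binds IL-6 and gives it specificity, stood at 2.17 and 3.39 TPM in shGLUD1, against 2.79 and 4.13 TPM in shNT. The groups overlapped, the log2 fold change was -0.24 (SE 0.27) and not past the threshold, and the rescaled value was -0.81 (SE 0.23), past it. The ratio of IL6ST to IL6R TPM was 1.43 and 1.55 in shGLUD1, against 0.606 and 0.574 in shNT. IL6ST was thus the more abundant transcript in both shGLUD1 libraries, and IL6R in both shNT libraries. Both genes were low, at most 5.26 TPM, and receptor protein was not measured. LIFR, a receptor chain of LIF and of several related ligands, stood at 0.38 and 1.65 TPM in shGLUD1, against 0.44 and 0.15 TPM in shNT. Its mean was under 1 TPM, so it was not tested, the groups overlapped, and only shGLUD1 replicate 2 was above 1 TPM.

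SOCS3, the inhibitor induced by STAT3, lies on chromosome 17 (78356778 to 78360077, minus strand). It stood at 13.39 and 15.81 TPM in shGLUD1, against 10.13 and 9.43 TPM in shNT, with no overlap. The log2 fold change was 0.53 (SE 0.18), a little under that of the median gene, and the rescaled value was -0.17 (SE 0.14), in the other direction and not past the threshold. SOCS3 was past the threshold with all 4 libraries, but not without shGLUD1 replicate 2 (0.42), shNT replicate 1 (0.58) or shNT replicate 2 (0.48), nor with all 4 libraries and no filter on low values.

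**Figure D3:**
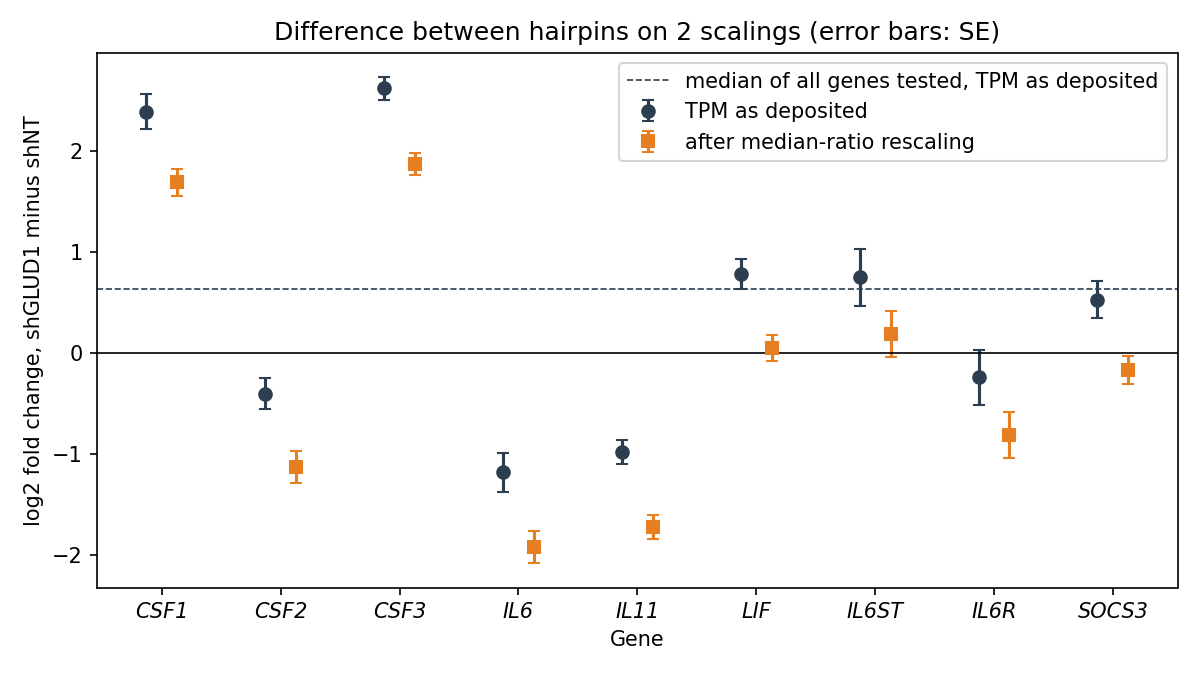
log2 fold change (shGLUD1 minus shNT) of the 9 genes tested, as circles for TPM as deposited and squares after median-ratio rescaling, with SE as error bars and a dashed line at 0.63, the median of all genes tested on TPM. CSF1 and CSF3 lie above 0 and IL6, IL11 and CSF2 below 0 on both scalings, LIF, IL6ST and SOCS3 are near the dashed line, and SOCS3 crosses to -0.17 after rescaling.

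The other genes of these pathways were listed by role, 91 genes in 8 lists. The lists were drawn up with earlier results of this comparison known, so their counts and p-values are not independent evidence of a direction. Of these, 66 reached a mean of 1 TPM, a filter that a gene low in shNT can pass by its shGLUD1 level. Among the 66, 51 rose and 1 fell in shGLUD1, beside 56.7% and 7.77% of all genes tested, with a median log2 fold change of 1.00 beside 0.63. After rescaling 26 were higher and 11 lower, beside 23.2% and 27.9% of all genes tested, with a median of 0.32.

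Few other ligands and receptors were measured. Over all genes tested, 56.7% rose and 7.77% fell, and after rescaling 23.2% were higher and 27.9% lower. Of 8 further IL-6 family ligand genes, 4 were tested. Of these 1 rose and none fell, and after rescaling 1 was higher and 2 lower. CTF1, cardiotrophin, rose, at 6.60 and 5.36 TPM in shGLUD1 and 2.29 and 1.86 TPM in shNT (1.18, limma adjusted p = 0.00146, rescaled 0.59), a call lost under quantile normalization (0.45). CLCF1, another ligand of the family, was the most abundant of them, at 11.88 and 11.99 TPM in shGLUD1 and 12.40 and 10.46 TPM in shNT (0.06, SE 0.18, rescaled -0.64). Neither IL34, the other ligand of CSF1R, nor KITLG, stem cell factor, passed the test (0.06 and 0.15, limma adjusted p = 0.856 and 0.671), and 2 of the 4 further colony-stimulating ligands were tested. Of 12 further receptor genes, 3 were tested. Among these 2 rose and none fell, and after rescaling 1 was higher and 1 lower. CSF1R, the receptor of CSF1, stood at 5.54 and 6.11 TPM in shGLUD1 and 2.66 and 1.78 TPM in shNT (1.10, limma adjusted p = 0.0026), and its rescaled value of 0.51 was not past the threshold. IL31RA, a receptor chain next to IL6ST in the genome, rose as well (1.22, limma adjusted p = 0.00151, rescaled 0.70). IL11RA, the specific receptor of IL-11, stood at 11.22 and 9.72 TPM in shGLUD1 and 12.43 and 12.50 TPM in shNT (-0.23, limma adjusted p = 0.266, rescaled -0.93). Receptor genes near 0, named here after their values were seen, included those of CSF3 and CSF2: CSF3R was listed at 0 in both shGLUD1 libraries and at 0 and 0.06 TPM in shNT, CSF2RB was listed at 0 in every library, and CSF2RA was at most 0.51 TPM and OSMR at most 0.13 TPM.

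Of 16 genes that carry the signal inside the cell, 11 were tested. Of these 10 rose and none fell, beside 56.7% and 7.77% of all genes tested, and after rescaling 5 were higher and 1 lower, beside 23.2% and 27.9% (list median 1.00, rescaled 0.25). JAK1, a kinase bound to gp130, stood at 13.64 and 15.14 TPM in shGLUD1, against 2.95 and 3.68 TPM in shNT (1.84, limma adjusted p = 4.43e-05, rescaled 1.18). PTPN11, the phosphatase SHP2 that links receptors to RAS, rose by 1.78 (limma adjusted p = 0.000141, rescaled 1.15). STAT3, named after its values were seen, stood at 11.30 and 12.57 TPM in shGLUD1, against 3.93 and 3.57 TPM in shNT (1.44, limma adjusted p = 0.000168, rescaled 0.79). The adaptors GRB2 and SHC1 were the most abundant of the list and rose by 1.00 and 0.52. Their rescaled values of 0.25 and -0.23 were not past the threshold, and SHC1 lost its call without shNT replicate 2 (0.43). Under quantile normalization GRB2 was past the threshold (0.64) and SHC1 was not (0.09). The gene that did not pass, STAT5A, had a log2 fold change of -0.28 and was the one lower after rescaling (-0.88, limma adjusted p = 0.00495).

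Of 16 inhibitors other than SOCS3, 13 were tested. Of these 11 rose and none fell, beside 56.7% and 7.77% of all genes tested, and after rescaling 5 were higher and none lower, beside 23.2% and 27.9% (list median 1.05, rescaled 0.51). SOCS4, SOCS5, SOCS7 and PIAS1 averaged 0.34, 0.945, 0.825 and 0.5 TPM in shNT and so passed the filter through their shGLUD1 level. SH2B3, an adaptor that restrains JAK2 signalling, stood at 24.67 and 29.60 TPM in shGLUD1, against 4.97 and 4.56 TPM in shNT (2.28, limma adjusted p = 6.69e-06, rescaled 1.59). PTPN1, a phosphatase that acts on JAK kinases, rose by 1.72 (rescaled 1.03), and PIAS3, which inhibits STAT3, by 1.57 (rescaled 0.91), with limma adjusted p of 3.51e-05 and 9.85e-05. SOCS1 and SOCS2 were the genes that did not pass.

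Of 16 known target genes of STAT3, 15 were tested. Of these 12 rose and none fell, beside 56.7% and 7.77% of all genes tested, and after rescaling 6 were higher and 4 lower, beside 23.2% and 27.9% (list median 0.64, rescaled -0.02, close to all genes on both scalings). SERPINA3, named after its values were seen, was under the filter, at 0.14 and 0.08 TPM in shGLUD1 and 0.77 and 0.79 TPM in shNT. With no filter on low values, 1 of the 16 was lower, beside 788 of the 24169 genes then tested. MCL1, which protects cells from apoptosis, stood at 40.05 and 58.53 TPM in shGLUD1, against 12.10 and 13.57 TPM in shNT (1.84, limma adjusted p = 2.26e-05, rescaled 1.11). BCL6, a transcriptional repressor, and CCND1, cyclin D1, rose by 1.59 and 1.41 (rescaled 1.04 and 0.66, limma adjusted p = 0.000252 and 1.26e-05). TIMP1, an inhibitor of matrix proteases and the most abundant of the list, stood at 1645.08 and 1735.57 TPM in shGLUD1 and 1451.02 and 1476.38 TPM in shNT. It rose by 0.21 on TPM (limma adjusted p = 0.0473) but was lower after rescaling (-0.56), whereas under quantile normalization it was higher (0.24). TIMP1 was not past the threshold without shGLUD1 replicate 2 (0.17), shNT replicate 1 (0.19) or shNT replicate 2 (0.22). Nor was it with all 4 libraries and no filter on low values or no variance trend. BIRC5, survivin, rose by 0.64, but not after rescaling (-0.12), and was past the threshold under quantile normalization (0.36).

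Of 14 proteins that set how long cytokine mRNAs last, 13 had tested genes. Of these 10 rose and 1 fell, beside 56.7% and 7.77% of all genes tested, and after rescaling 5 were higher and 3 lower, beside 23.2% and 27.9% (list median 1.04, rescaled 0.33). ZFP36L1, which binds AU-rich elements and speeds decay, stood at 26.82 and 32.55 TPM in shGLUD1, against 6.01 and 6.33 TPM in shNT (2.09, limma adjusted p = 8.72e-06, rescaled 1.39). HNRNPD, the AU-rich element binding protein AUF1, stood at 118.66 and 151.75 TPM in shGLUD1, against 39.17 and 37.27 TPM in shNT (1.79, limma adjusted p = 4.5e-06, rescaled 1.03). TIA1, a translational repressor of such mRNAs, rose by 1.52 (rescaled 0.88, limma adjusted p = 0.000136), and KHSRP, another decay factor, by 0.61, but not after rescaling (-0.14). The gene that fell, named after its values were seen, was RC3H2, a roquin, at 8.59 and 9.68 TPM in shGLUD1 and 13.20 and 15.71 TPM in shNT (-0.61, limma adjusted p = 0.0139, rescaled -1.30). Its call was lost without shGLUD1 replicate 1 (-0.53), shNT replicate 1 (-0.72) or shNT replicate 2 (-0.49).

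The 5 genes listed for the shedding of receptors and ligands from the membrane all rose, beside 56.7% and 7.77% of all genes tested that rose or fell (list median 1.17, rescaled 0.49), and 3 were higher and none lower after rescaling, beside 23.2% and 27.9%. ADAM10 stood at 7.17 and 12.57 TPM in shGLUD1, against 2.19 and 2.28 TPM in shNT (1.70, limma adjusted p = 0.000325, rescaled 1.09). ADAM17, which releases membrane-bound ligands and receptors such as the IL-6 receptor, stood at 4.16 and 6.20 TPM in shGLUD1, against 1.13 and 1.35 TPM in shNT (1.45, limma adjusted p = 0.000706, rescaled 0.91). RHBDF1, which helps ADAM17 mature, rose by 1.17 (limma adjusted p = 0.000993, rescaled 0.49), a call lost under quantile normalization (0.41). MMP14, a membrane-bound protease, and RHBDF2 rose by 1.00 and 0.99, but neither was past the threshold after rescaling (0.25 and 0.30). Under quantile normalization MMP14 was past the threshold (0.72) and RHBDF2 was not (0.24).

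**Figure D4:**
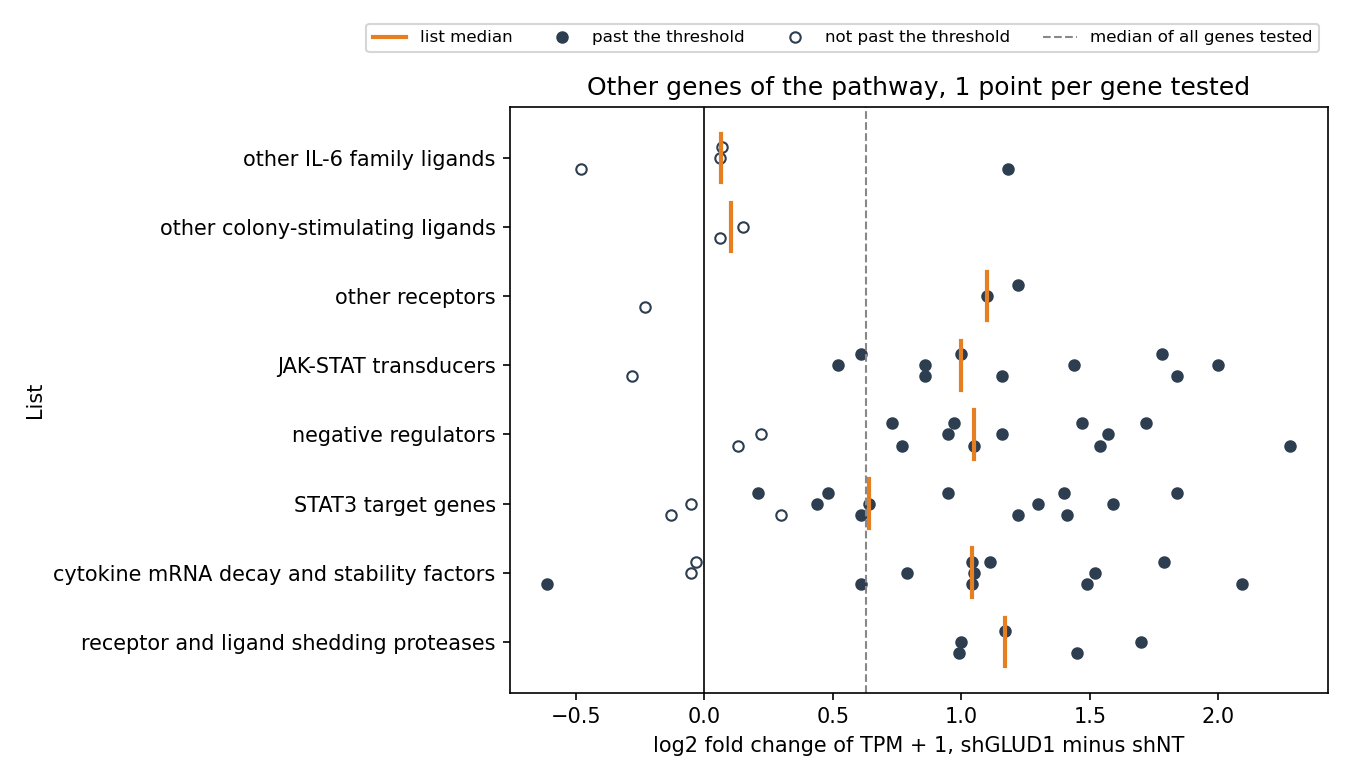
log2 fold change of TPM + 1 (shGLUD1 minus shNT) of the 66 pathway genes tested, 1 point per gene in 8 lists; filled points passed the limma threshold, orange bars are list medians and the dashed line at 0.63 is the median of all genes tested. Most filled points lie right of 0, and RC3H2 at -0.61 is the filled point left of it.

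The nearest protein-coding gene on each side of the 10 genes, a set defined after the 10 genes' values were seen, gave 20 flanking genes, of which 8 were tested. Of these 7 rose and none fell on TPM (median log2 fold change 1.19), beside 56.7% and 7.77% of all genes tested. After rescaling 5 were higher and 1 lower, beside 23.2% and 27.9%. AHCYL1, 53693 bases from CSF1, stood at 28.25 and 41.80 TPM in shGLUD1, against 7.30 and 7.64 TPM in shNT (2.06, limma adjusted p = 1.8e-05, rescaled 1.35). MED24, 1283 bases from CSF3, rose by 1.50 (limma adjusted p = 2.31e-05, rescaled 0.77), and PSMD3, on the other side of CSF3, by 0.50 (limma adjusted p = 0.00385), but not after rescaling (-0.25). TOMM7, the neighbour of IL6 that was tested, stood at 348.49 and 335.38 TPM in shGLUD1 and 378.14 and 413.10 TPM in shNT (-0.21, limma adjusted p = 0.0672, rescaled -0.97). Under quantile normalization the value of TOMM7 was -0.25. IL3, the factor gene beside CSF2, was listed at 0 in every library.

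Among 7825 other genes that averaged 5 TPM or more, likeness to CSF3, CSF1 and IL6 was measured as the root mean square distance of centred log2(TPM + 1) over the 4 libraries. Nearest to CSF3 were FAM114A1, SEMA7A and BUB1 (distances 0.0197, 0.0497 and 0.0537). Nearest to CSF1 were HEG1, TUBA1A and RMI2 (0.0288, 0.0328 and 0.0374), and nearest to IL6 were STC2, RSBN1L-AS1 and MRPL1 (0.0734, 0.0822 and 0.126). With 4 libraries this likeness mostly reflects the difference between the groups.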

How the data were processed

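RNA libraries were made with the TruSeq V2 kit from 1 µg of total RNA, per the labels' protocols. The authors deposited 1 table of TPM with 1 column per library, each summing to about 1000000, so read depth cannot be known and counting intervals are not given. Per the submitters' processing notes, Bowtie 0.12.2 was among the tools and the builds were hg38 and mm8, with no role stated; quantifier and annotation: not given in the sources used here. Libraries were grouped by their titles.

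Fold changes are differences of log2(TPM + 1), a scale that shrinks those of low genes. Genes whose mean reached 1 TPM were fitted with limma 3.58.1 in R 4.3.3 (variance trend, group as the only term), adjusted by Benjamini-Hochberg over 12524 genes, two-sided; limma borrows spread across genes (prior of 8.8 degrees of freedom). For a single value, the smallest two-sided exact permutation p with 2 against 2 is 0.333. The fit was run on simulated data with the same spread for every gene and few or no changed genes, balanced in direction. In the data themselves most genes were past the threshold, mainly in the higher direction, so that run does not bear on the scaling. Rescaling divided each library by its median ratio to the geometric mean. The members and lists were chosen with earlier results of these data known. Named by rule were the 10 genes, GLUD1, in each list the 3 largest changes past the threshold and the 2 highest levels, and the 3 genes most like each of the 3 members with the largest change; 1 gene so chosen is not reported here, and others are said to have been named after their values were seen, or are markers, overlapping or flanking genes. Coordinates are from GENCODE release 29 (GRCh38) by gene identifier. Python 3.11.15 was used for tables, motif searches and figures. Alternatives were a pseudocount of 0.1 TPM, no filter, a minimum mean of 5 TPM, rescaling by median ratios, quantile normalization, leaving out the variance trend, a block for the replicate number, and leaving out each library.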

Additional observations from a re-analysis of the deposited data

How the results depend on the processing

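CSF1, CSF3, IL6 and IL11 kept their direction and their side of the threshold under all 11 alternatives, with log2 fold changes of 1.69 to 2.56, 1.87 to 2.68, -1.92 to -0.87 and -1.72 to -0.94. The scaling between libraries moved most counts. Genes higher in shGLUD1 numbered 7105, against 2910 after median-ratio rescaling, 2938 after quantile normalization and 4676 at a mean of at least 5 TPM, where fewer genes were tested. Genes lower numbered 973, against 3491 and 2764 after the same rescalings. Of the members, 5 were past the threshold in the higher direction, against 3 without a filter on low values and 2 after either rescaling. Over all genes, 5822 of the 24169 tested without that filter were higher. Fewer members were also past it in some fits with 1 library left out, as was so for all genes tested. Of the pathway genes, 51 rose, against 26 after median-ratio rescaling and 29 after quantile normalization. Of them 1 fell, against 11 and 10 after the same rescalings, 2 without a variance trend and 2 of 84 without a filter on low values. Over all genes tested, 763 were lower without a variance trend and 788 of 24169 without that filter. With 1 library left out, no more of the pathway genes fell than with every library. Apart from the rescalings and filters, whose construction changes the scale or the genes tested, the cause was not tested.

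Signs that reversed under median-ratio rescaling and quantile normalization were those of SOCS3 (-0.17 and -0.18), CLCF1 (-0.64 and -0.65), IL34 (-0.38 and -0.56) and KITLG (-0.26 and -0.45). Under median-ratio rescaling alone they were SHC1 (-0.23), TIMP1 (-0.56), BIRC5 (-0.12), KHSRP (-0.14) and PSMD3 (-0.25). With 1 library left out, values ranged from -0.05 to 0.17 for CLCF1, reversing without shNT replicate 2, and from -0.22 to 0.34 for IL34, reversing without shGLUD1 replicate 2 or shNT replicate 2. They ranged from -0.14 to 0.44 for KITLG, reversing without shGLUD1 replicate 2 or shNT replicate 1, and from -0.37 to 0.15 for GLUD1, reversing without shGLUD1 replicate 1.

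The replicate numbers are shared by the groups but nothing in the labels pairs them, and same-numbered deviations from the group means correlated at 0.039 over genes. With the replicate number as a block, 7395 genes were higher and 1061 lower, the members past the threshold numbered 5 and 3, and TIMP1 lost its call. TPM hold no read totals, so values near 0, as for LIFR and most receptors, have an unknown counting error.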
